A study of Mus musculus with 12 samples.

Results

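The nuclear genes for the subunits of respiratory complexes II, III, IV and V were described in mouse BV2 cells, an immortalised microglial line, kept alone or with neutrophils. The members were the protein-coding rows whose symbols begin with Uqcr, Atp5 or Cox4 to Cox8, together with Cyc1 and Sdha to Sdhd. They numbered 47 of the 27487 genes listed, of which 4 belong to complex II, 9 to complex III, 16 to complex IV and 18 to complex V. The rule used symbols alone and no measured value, but it was set with earlier results of these data known. Of the 47, 45 passed the filter on low counts and were tested. Cox4i2 and Cox8b, both minor isoforms of complex IV subunits, were at or near 0 and were not tested. Cox5b-ps, a near-identical copy of Cox5b, met the rule as well, and reads may be divided between those loci, so both are uncertain. The symbols do not reach Ndufa4, which is counted among the complex IV subunits in current structures, and they do include Atp5if1, an inhibitor of complex V, and Cox7a2l, a factor that joins complexes III and IV.

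Libraries of polyadenylated RNA came from 3 groups of 4. CTR was BV2 cells alone, Neu was BV2 cells with primary mouse neutrophils, and Neu+NETs was BV2 cells with neutrophils given phorbol 12-myristate 13-acetate (PMA), a protein kinase C activator that makes neutrophils release extracellular traps of chromatin. No group of BV2 cells with PMA alone was analysed here, so PMA and the traps cannot be told apart in Neu+NETs. The labels name BV2 as the cell line and also give retina as tissue. They do not say whether the libraries of a group came from separate cultures or whether neutrophils were washed away ahead of RNA extraction. The p-values below thus rest on library-to-library spread that could be purely technical.

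Complex II, succinate dehydrogenase, oxidises succinate in the tricarboxylic acid cycle and passes the electrons to ubiquinone; all its subunits are nuclear. Complex III hands electrons from ubiquinol to cytochrome c, and complex IV passes them from cytochrome c to oxygen. Both pump protons, and complex V, the ATP synthase, uses the returning protons to make ATP. Complexes III, IV and V each join nuclear subunits to mitochondrially encoded ones, so 2 genomes supply them. Nuclear subunit genes are known targets of NRF1 and of ETS factors such as GABP. In macrophages and microglia, inflammatory activation is known to go with a move from respiration to glycolysis. Complex IV subunits exist as isoforms, and HIF-1 is known to exchange COX4-1 for COX4-2 and to raise the protease LONP1.

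Promoter sequence was compared because the members did not move together. RefSeq windows of the 250 bases before the gene start were found for 33 of the 47 members; Atp5f1a, Atp5if1, Atp5mj, Atp5mk, Cox4i1, Cox4i2, Cox5b-ps, Cox6a2, Cox6c, Cyc1, Sdhc, Uqcrb, Uqcrc2 and Uqcrq had none. The windows are on build GRCm38.p6, while gene positions in the deposited tables are on GRCm39, so their coordinates are not interchangeable. Each of the 6 windows below runs 5′ to 3′ on the gene's own strand and ends at the base before the start. They were chosen to show an NRF1 core (Sdhb), an ETS motif (Sdhd), the genes of the c-ring isoforms that differ most in response (Atp5mc1, Atp5mc2) and the 2 complex IV genes that rose in Neu and kept that call in all 24 alternative settings (Cox7a2l, Cox7a1). Capitals mark matches, on either strand, to the NRF1 core GCATGCGC, ETS CCGGAAG, YY1 AAGATGGC, E-box CACGTG or hypoxia response core ACGTG.
Sdhb: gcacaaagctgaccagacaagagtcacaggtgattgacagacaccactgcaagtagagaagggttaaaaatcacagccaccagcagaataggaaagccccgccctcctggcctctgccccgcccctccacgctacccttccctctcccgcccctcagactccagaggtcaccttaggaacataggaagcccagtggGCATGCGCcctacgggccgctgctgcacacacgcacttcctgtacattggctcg
Sdhd: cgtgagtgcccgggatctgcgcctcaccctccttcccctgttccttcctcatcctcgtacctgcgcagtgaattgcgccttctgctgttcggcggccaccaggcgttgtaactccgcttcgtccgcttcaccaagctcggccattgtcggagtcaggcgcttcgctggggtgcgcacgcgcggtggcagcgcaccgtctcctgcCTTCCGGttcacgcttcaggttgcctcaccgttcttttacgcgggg
Atp5mc1: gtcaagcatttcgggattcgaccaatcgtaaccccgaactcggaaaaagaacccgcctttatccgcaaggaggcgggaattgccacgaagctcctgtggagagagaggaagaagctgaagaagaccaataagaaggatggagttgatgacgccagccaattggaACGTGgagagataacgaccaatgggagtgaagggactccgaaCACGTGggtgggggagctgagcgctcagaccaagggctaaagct
Atp5mc2: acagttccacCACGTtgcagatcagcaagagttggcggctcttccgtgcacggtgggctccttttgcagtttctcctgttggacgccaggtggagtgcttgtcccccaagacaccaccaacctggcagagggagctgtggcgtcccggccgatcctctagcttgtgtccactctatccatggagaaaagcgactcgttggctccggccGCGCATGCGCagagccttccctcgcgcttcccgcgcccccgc
Cox7a2l: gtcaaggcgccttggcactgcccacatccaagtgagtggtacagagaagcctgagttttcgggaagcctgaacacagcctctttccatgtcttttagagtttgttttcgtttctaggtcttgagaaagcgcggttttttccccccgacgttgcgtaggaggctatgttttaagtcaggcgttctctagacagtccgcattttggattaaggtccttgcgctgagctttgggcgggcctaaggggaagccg
Cox7a1: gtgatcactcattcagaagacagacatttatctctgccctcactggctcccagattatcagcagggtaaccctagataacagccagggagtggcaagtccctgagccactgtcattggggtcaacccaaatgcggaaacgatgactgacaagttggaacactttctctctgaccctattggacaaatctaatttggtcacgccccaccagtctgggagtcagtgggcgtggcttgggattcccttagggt
The windows lie at chr4:140961021-140961270, plus strand (Sdhb), chr9:50603850-50604099, minus strand (Sdhd), chr11:96075632-96075881, minus strand (Atp5mc1), chr15:102671048-102671297, minus strand (Atp5mc2), chr17:83514334-83514583, minus strand (Cox7a2l) and chr7:30183921-30184170, plus strand (Cox7a1). The Sdhb window holds the NRF1 core 54 bases before the start, and the Sdhd window holds the ETS motif 46 bases before it. The Atp5mc1 window holds an E-box 44 bases before the start and a separate ACGTG at 86, whereas Atp5mc2 holds the NRF1 core on both strands at 40 to 42 bases and ACGTG at 240. The Cox7a2l and Cox7a1 windows hold none of the 5 motifs.

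Across windows, the NRF1 core was in 5 of 33 members (15.2%) and in 2.56% of the 27025 genes with a window. The members holding it were Atp5mc2, Atp5me, Atp5mg, Cox6a1 and Sdhb. The 27025 are all genes with a RefSeq window, expressed here or not, so the members were not set against expressed genes alone. The ETS motif was in 9 members (27.3%) against 7.83% of genes, the E-box in 4 (12.1%) against 6.86%, and YY1 in 1 (3.03%) against 1.83%. ACGTG, which every E-box contains, was in 10 members (30.3%) against 18.5% of genes. Of the 17 members with a window that were lower in Neu than in CTR, 8 held ACGTG, and of the other 16, 2 did, of which Cox8b was not tested. Of the 12 lower in Neu+NETs than in CTR, 4 held it (33.3%), near the share of all members with a window. The ETS motif ran the other way, in 2 of the 17 and 7 of the 16. These are counts of letters in short windows, given with no test, and a match does not show that a factor binds there.

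Deposited estimated counts summed to between 53512190 and 68316549 per library. Low counts piled up at multiples of 4, at 33.0% of values from 2 to 41 where an even spread gives 25%, so a fragment appears to stand for about 4 units and precision is below what the totals imply. Levels below are the deposited FPKM (fragments per kilobase of transcript, scaled to library size), each group listed in order of replicates 1 to 4. Fold changes are log2 values from edgeR on the counts, and a gene was called at an adjusted p under 0.05 over the 16387 genes tested. The FPKM scale was also fitted, with limma on log2(FPKM + 1). Its median over the 11250 genes its filter kept was 0.11 for Neu+NETs minus Neu and -0.09 for Neu minus CTR, and 0.00 for both over all 27487 genes, many of them at or near 0. The edgeR medians over its 16387 genes were -0.05 and 0.02, so scale and gene set differ together. A level in FPKM can therefore differ a little from what the fold change gives. Lengths implied by count and FPKM ranged from 536 to 6951 nt among members, so levels of different subunits depend on the length used.

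Cell-type markers were read beside the members. Of 10 microglia and macrophage markers, all 10 were lower in Neu+NETs than in CTR; their summed level was 851 to 901 FPKM in CTR, 820 to 851 in Neu and 545 to 559 in Neu+NETs. The sum is led by Cd68, and the median log2 fold change of the 10 in Neu+NETs was -1.61, a larger drop than the sum shows. In Neu, 2 of the 10 were higher and 3 lower, near the shares of all genes tested, 26.1% higher and 27.9% lower. In Neu+NETs, 21.6% of all genes were called higher and 23.7% lower. The brain microglia markers Cx3cr1 and P2ry12 were at no more than 0.926 and 0.903 FPKM in CTR. Of 15 neutrophil markers, 10 were listed and 5 tested; 2 were higher in Neu and 4 were lower in Neu+NETs than in CTR. Their summed level was 5.69 to 7.03 FPKM in CTR, 6.92 to 7.20 in Neu and 0.797 to 1.38 in Neu+NETs, mostly Csf3r. The granule genes Mpo, Elane, Camp and Ngp stayed at or below 0.202 FPKM in every library. They are 4 of the 15 markers, and their low level alone does not show that neutrophil RNA was absent. In bulk RNA, fewer cells of a type and less RNA per cell cannot be told apart, and the part of these markers in the results was not tested.

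Against CTR, 20 of the 45 tested members were lower in Neu and 5 were higher. Over all genes tested, 27.9% were called lower and 26.1% higher. The median log2 fold change was -0.10 for the members and 0.02 for all genes. In Neu+NETs against CTR, 18 members were lower and 0 were higher, where 23.7% of all genes were called lower and 21.6% higher; the medians were -0.07 and 0.00. The count higher was 0 by edgeR, DESeq2 and limma on FPKM, and 0 at an unadjusted p under 0.05 in the edgeR fit. With library totals as the only scaling it was 2 (Cox7a2l and Uqcrfs1), beside 13 lower. The comparisons with CTR share its 4 libraries, so their counts are not independent. Neu+NETs compared directly with Neu gave 12 higher and 12 lower members, against 29.4% and 33.1% of all genes. That even split rested on the scaling: it was 17 higher and 6 lower with library totals alone, 11 and 16 with upper-quartile scaling, and 20 and 4 with limma on log2(FPKM + 1).

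**Figure D1:**
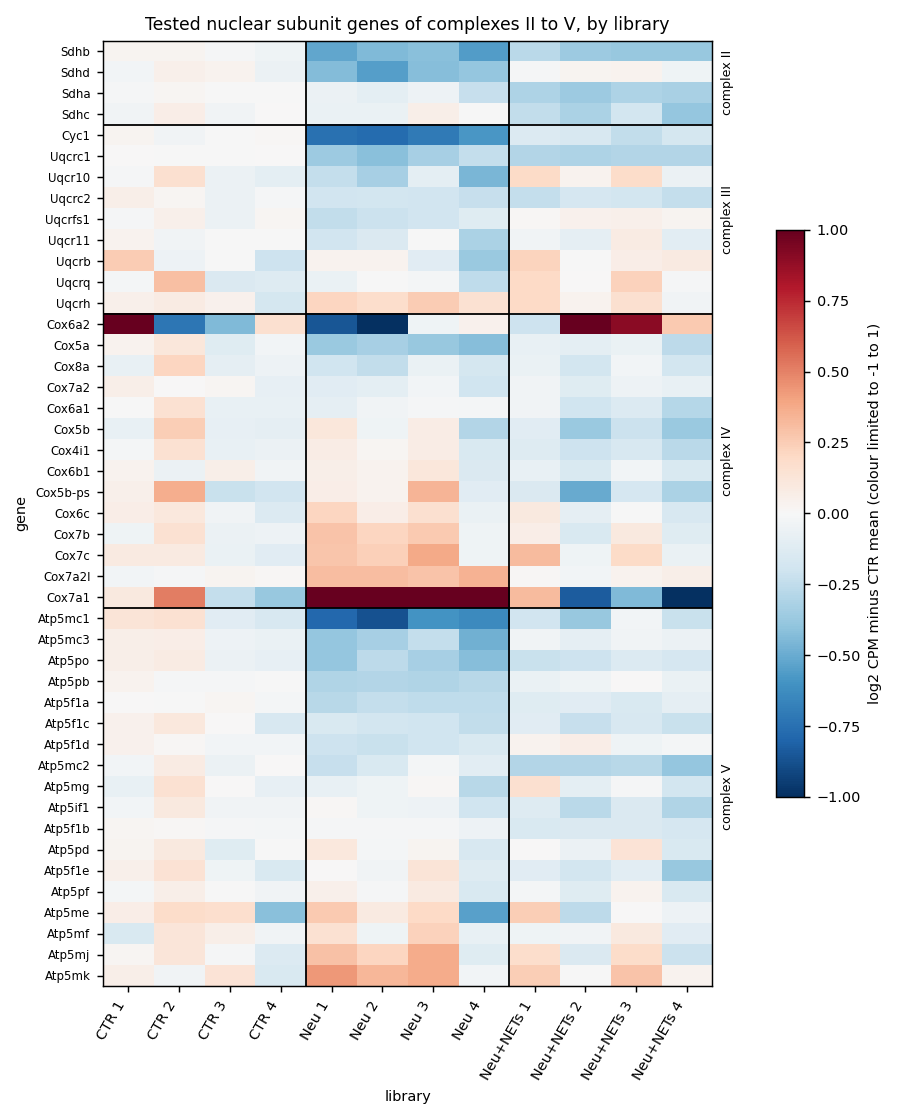
Colour gives the log2 CPM (counts scaled to library size) of each of the 45 tested members (rows, by complex) minus its CTR mean, in each of the 12 libraries (columns); blue is below and red above that mean, and colour is limited to -1 to 1. Sdhb, Sdhd, Cyc1 and Atp5mc1 are blue in all 4 Neu libraries, while Cox7a2l and Cox7a1 are red there; Cox6a2, at under 1 FPKM, varies within groups.

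Complex II genes were lower in both co-cultures. In Neu, Sdhb and Sdhd fell most; in Neu+NETs, Sdha, Sdhb and Sdhc fell and Sdhd did not. Of the 4 genes, 3 were called lower in each comparison with CTR and 0 higher. The shares of all genes called lower were 27.9% in Neu and 23.7% in Neu+NETs. Medians of the complex were -0.28 in Neu and -0.30 in Neu+NETs. The 4 medians by library lay between -0.31 and -0.23 in Neu and between -0.35 and -0.25 in Neu+NETs, all below the 4 CTR libraries at -0.02 to 0.04.

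Sdha (ENSMUSG00000021577, chr13:74470373-74498399, minus strand) encodes the flavoprotein that binds succinate. It was at 98.3, 99.6, 99.0 and 99.3 FPKM in CTR, 91.0, 89.0, 91.0 and 82.6 in Neu, and 82.1, 80.2, 82.1 and 82.5 in Neu+NETs. CTR was above both co-cultures, and Neu+NETs was lowest, though its highest library nearly met Neu replicate 4. The log2 fold change was -0.11 ± 0.03 (SE; adjusted p = 0.011) in Neu, a call lost with upper-quartile scaling, and -0.33 ± 0.03 (SE; adjusted p = 3.8e-07) in Neu+NETs. Compared directly, Neu+NETs minus Neu was -0.22 ± 0.03 (SE; adjusted p = 1.7e-05).

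Sdhb (ENSMUSG00000009863, chr4:140688514-140706504, plus strand) encodes the iron-sulfur subunit, and its window above holds the NRF1 core. Its level was 57.1, 56.6, 55.7 and 54.7 FPKM in CTR, 37.5, 39.6, 39.9 and 37.1 in Neu, and 47.8, 45.3, 44.2 and 44.9 in Neu+NETs. Every Neu library was below every Neu+NETs library, and both groups were below CTR. The log2 fold change against CTR was -0.48 ± 0.04 (SE; adjusted p = 7.7e-09) in Neu, or 1.40-fold lower, and -0.35 ± 0.04 (SE; adjusted p = 8.0e-07) in Neu+NETs. Neu+NETs against Neu gave 0.14 ± 0.04 (SE; adjusted p = 0.0045), a call lost with upper-quartile scaling.

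Sdhc (ENSMUSG00000058076, chr1:170954734-170978172, minus strand) encodes a membrane anchor with a share of the heme and ubiquinone sites. Libraries read 38.3, 40.6, 38.2 and 39.5 FPKM in CTR, 35.8, 35.8, 38.7 and 38.1 in Neu, and 33.8, 32.6, 35.4 and 31.3 in Neu+NETs. CTR and Neu overlapped, and Neu+NETs lay below both. The value was -0.02 ± 0.04 (SE; adjusted p = 0.73) in Neu, with a 95% interval of -0.10 to 0.06, and -0.28 ± 0.04 (SE; adjusted p = 3.6e-05) in Neu+NETs.

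Sdhd (ENSMUSG00000000171, chr9:50507657-50515112, minus strand) encodes the other anchor, the partner of Sdhc. It stood at 135, 142, 141 and 133 FPKM in CTR, 97.9, 90.3, 97.5 and 103 in Neu, and 140.1, 145, 145 and 139.9 in Neu+NETs. Only the Neu libraries were low, and CTR and Neu+NETs overlapped. The log2 fold change was -0.45 ± 0.04 (SE; adjusted p = 1.4e-08) in Neu; in Neu+NETs it was 0.00, with a 95% interval of -0.07 to 0.07. The direct comparison of Neu+NETs with Neu gave 0.45 ± 0.04 (SE; adjusted p = 9.1e-09). Thus the anchors parted: in that comparison Sdhd rose while Sdhc fell by 0.26 ± 0.04 on the log2 scale (SE; adjusted p = 4.0e-05), and both calls held in all 24 alternative settings. The complex's median in it was -0.04 and turned to 0.03 with library totals alone and 0.06 with limma on log2(FPKM + 1).

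**Figure D2:**
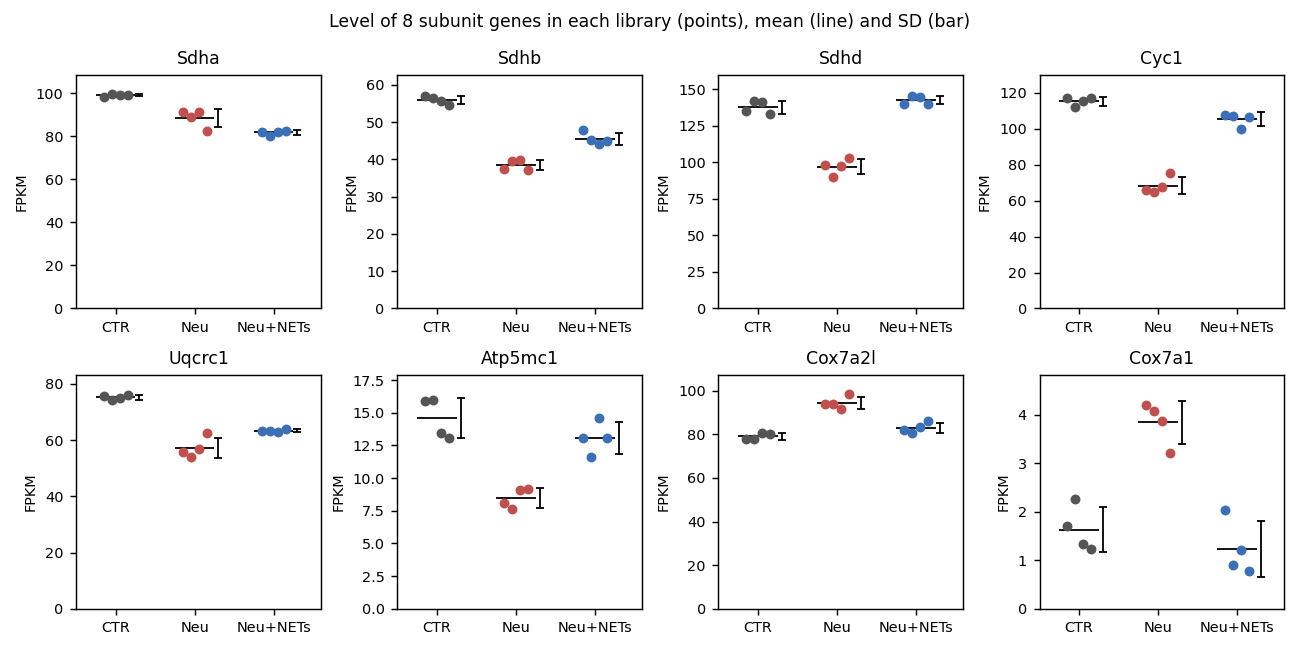
Points are the FPKM (y axis, from 0) of each of the 4 libraries per group (x axis) for 8 genes, with the mean as a line and the SD as a bar. Sdhd, Cyc1 and Atp5mc1 are low in Neu alone, Sdha is lowest in Neu+NETs, and Cox7a2l and Cox7a1 are high in Neu alone.

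Complex III was lower in Neu in 6 of 9 genes and higher in 1, with a median of -0.19. In Neu+NETs 3 were lower, 0 were higher and the median was 0.03. The genes lower in both were Uqcrc1, Uqcrc2 and Cyc1. Of all genes tested, 27.9% were called lower and 26.1% higher in Neu, and 23.7% and 21.6% in Neu+NETs. Compared directly, Neu+NETs exceeded Neu in 3 genes (Cyc1, Uqcrfs1 and Uqcr10) and was below it in 0. The count higher is near the 29.4% of all genes called higher, and 33.1% were called lower. The complex's median in that comparison was 0.19. That median was 0.105 without Neu replicate 4, the lowest of its group for 28 of the 43 members with an implied length.

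Cyc1 (ENSMUSG00000022551, chr15:76227723-76230460, plus strand) encodes cytochrome c1, the heme subunit that reduces cytochrome c. Its level was 117, 112, 115 and 117 FPKM in CTR, 66.2, 64.8, 67.4 and 75.5 in Neu, and 108, 107, 99.8 and 107 in Neu+NETs. Neu lay far below the other groups, and Neu+NETs lay just below CTR with no overlap. The log2 fold change was -0.70 ± 0.04 (SE; adjusted p = 8.6e-11) in Neu, a 1.62-fold drop and the smallest adjusted p among the members in that comparison. It was -0.18 ± 0.04 (SE; adjusted p = 8.3e-04) in Neu+NETs and 0.52 ± 0.04 (SE; adjusted p = 2.3e-09) between Neu+NETs and Neu.

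Uqcrfs1, the Rieske iron-sulfur protein, passes electrons from ubiquinol to cytochrome c1. It was at 134, 138, 129 and 138 FPKM in CTR, 109, 111, 112 and 121 in Neu, and 139, 144, 143 and 143 in Neu+NETs. Neu alone was low, at -0.19 ± 0.03 (SE; adjusted p = 5.7e-05) against CTR, and Neu+NETs minus Neu was 0.23 ± 0.03 (SE; adjusted p = 8.3e-06). Neu+NETs minus CTR was 0.03, with a 95% interval of -0.03 to 0.09. Uqcr10, a small supernumerary subunit, read 140.1, 157, 136 and 133 FPKM in CTR, 115, 107, 126 and 101 in Neu, and 166, 150.3, 165 and 142 in Neu+NETs. Its Neu libraries were below all others, and the values were -0.28 (adjusted p = 0.004) in Neu, 0.09 (adjusted p = 0.37) in Neu+NETs and 0.37 (adjusted p = 3.3e-04) between them.

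Uqcrc1 and Uqcrc2 encode the core proteins, relatives of the matrix processing peptidase, and behaved otherwise. Uqcrc1 was at 75.6, 74.2, 75.0 and 76.0 FPKM in CTR, 55.9, 54.1, 56.9 and 62.4 in Neu, and 63.2, 63.1, 62.9 and 64.1 in Neu+NETs. Both co-cultures lay below CTR, at -0.34 ± 0.03 (SE; adjusted p = 9.0e-08) in Neu and -0.30 ± 0.03 (SE; adjusted p = 7.1e-07) in Neu+NETs. Uqcrc2 was at 94.1, 91.0, 87.0 and 90.5 FPKM in CTR, 75.9, 76.6, 75.5 and 75.6 in Neu, and 79.1, 83.8, 82.1 and 80.1 in Neu+NETs. Its values were -0.20 ± 0.03 (SE; adjusted p = 1.7e-05) and -0.21 ± 0.03 (SE; adjusted p = 1.9e-05). Neu+NETs minus Neu was 0.04 for Uqcrc1 (95% interval -0.02 to 0.10) and -0.01 for Uqcrc2 (-0.06 to 0.05). In FPKM, every Neu+NETs library was above every Neu library for both genes, so this comparison depends on the scale used.

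Uqcrh, the hinge protein that helps cytochrome c dock, was the member that rose in Neu, by 0.19 ± 0.06 (SE; adjusted p = 0.012). Its CTR replicate 4 was low, at 32.9 FPKM beside 38.0 to 38.9 in the other 3. Uqcr11 was lower in Neu at -0.16 (adjusted p = 0.047), a call lost in many settings, including without CTR replicate 1, 2, 3 or 4. Uqcrb and Uqcrq did not pass the test in any comparison, with values of -0.10 and -0.09 in Neu and 0.09 and 0.10 in Neu+NETs.

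Complex IV genes went both ways in Neu: 3 rose (Cox7a1, Cox7a2l, Cox7b), 3 fell (Cox5a, Cox7a2, Cox8a) and 8 of 14 were not called, with a median of 0.01. Counts of 3 in 14 are below the shares of all genes called higher (26.1%) and lower (27.9%) in Neu. In Neu+NETs 4 were lower (Cox4i1, Cox5a, Cox5b, Cox6a1), 0 higher and the median was -0.11. The count lower is near the 23.7% of all genes called lower there, and 21.6% were called higher. Neu+NETs against Neu gave 1 higher and 6 lower, beside 29.4% and 33.1% of all genes. The 6 were Cox4i1, Cox5b, Cox5b-ps, Cox7a1, Cox7a2l and Cox7b, of which Cox5b and Cox5b-ps may share reads. Only Cox7a1 and Cox7a2l among them kept the call in all 24 alternative settings. The complex's median in that comparison was -0.13 and shrank to -0.03 with limma on log2(FPKM + 1). Differences between complexes were not tested.

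Cox7a2l (ENSMUSG00000024248, chr17:83809347-83824759, minus strand), also named Scaf1, joins complex III to complex IV in supercomplexes. It was at 77.6, 77.8, 80.8 and 80.1 FPKM in CTR, 93.9, 93.7, 91.6 and 98.3 in Neu, and 81.9, 80.7, 83.3 and 86.1 in Neu+NETs. The lowest Neu library exceeded the highest library of either other group. The log2 fold change was 0.31 ± 0.03 (SE; adjusted p = 5.8e-08) in Neu, 0.02 ± 0.03 (SE; adjusted p = 0.59) in Neu+NETs and -0.29 ± 0.03 (SE; adjusted p = 9.2e-08) between Neu+NETs and Neu.

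Cox7a1 (ENSMUSG00000074218, chr7:29883569-29885503, plus strand) is the heart and skeletal muscle form of subunit 7A, and Cox7a2 is the form of most other tissues. Cox7a1 was low, at 1.70, 2.27, 1.33 and 1.24 FPKM in CTR, 4.21, 4.08, 3.87 and 3.21 in Neu, and 2.05, 0.898, 1.20 and 0.781 in Neu+NETs. Its deposited counts were 120 to 157 in Neu and 26 to 83 in the other libraries. Neu was the highest group with no overlap, and the log2 fold change was 1.28 ± 0.29 (SE; adjusted p = 0.0013), or 2.42-fold. Neu+NETs minus CTR was -0.45 (adjusted p = 0.25) and Neu+NETs minus Neu -1.73 ± 0.30 (SE; adjusted p = 7.4e-05). Cox7a2 was at 73.3, 69.9, 71.5 and 66.7 FPKM in CTR, 62.5, 63.1, 65.9 and 59.8 in Neu, and 70.4, 67.3, 69.8 and 69.6 in Neu+NETs. Its Neu libraries were below the rest, but the value of -0.11 (adjusted p = 0.042) was lost in many settings, including without Neu replicate 1, 2 or 4 and without CTR replicate 1, 2 or 3.

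Cox5a (ENSMUSG00000000088, chr9:57428557-57439709, plus strand) encodes a matrix-side subunit that binds diiodothyronine. Its level was 43.5, 45.7, 39.1 and 42.0 FPKM in CTR, 31.5, 32.3, 31.1 and 30.9 in Neu, and 41.4, 41.3, 41.6 and 37.0 in Neu+NETs. All Neu libraries were below all others, at -0.38 ± 0.05 (SE; adjusted p = 5.6e-06) against CTR. Neu+NETs exceeded Neu by 0.25 ± 0.05 (SE; adjusted p = 3.2e-04). Neu+NETs overlapped CTR, and its value of -0.13 (adjusted p = 0.049) was lost in many settings, including without Neu+NETs replicate 2 or 4 or CTR replicate 1, 2 or 4.

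Cox4i1 encodes the common form of subunit 4, an early partner of mitochondrially encoded COX1. It read 187, 209, 180.2 and 183 FPKM in CTR, 191, 184, 189.6 and 166 in Neu, and 177, 169.8, 174 and 164 in Neu+NETs. CTR and Neu overlapped, and the difference in Neu was 0.00 with a 95% interval of -0.10 to 0.11. In Neu+NETs it was -0.19 ± 0.05 (SE; adjusted p = 0.0069). The alternative form Cox4i2 was listed at 0 in 7 of the 12 libraries, including all of Neu+NETs, and at no more than 0.211 FPKM in the others.

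Cox5b, a zinc-binding subunit, was at 41.4, 51.3, 41.3 and 41.3 FPKM in CTR, 45.3, 40.7, 43.8 and 34.7 in Neu, and 41.5, 35.1, 38.5 and 35.2 in Neu+NETs. Its CTR replicate 2 was far above the other 3 CTR libraries and the groups overlapped. The value in Neu+NETs was -0.27 (adjusted p = 0.022), and the call was lost without CTR replicate 2 or Neu+NETs replicate 2 or 4. Cox6a1, the common form of subunit 6A, read 195, 215, 185 and 186 FPKM in CTR, 175, 182, 184 and 188 in Neu, and 195, 176, 182 and 167 in Neu+NETs. It was lower in Neu+NETs at -0.17 (adjusted p = 0.018), which overlapped CTR and was likewise lost without CTR replicate 2 or Neu+NETs replicate 2 or 4. The muscle form Cox6a2 was at 0.368 ± 0.231, 0.23 ± 0.098 and 0.53 ± 0.217 FPKM (SD, n = 4) in CTR, Neu and Neu+NETs.

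Among the small complex IV subunits, Cox7b rose in Neu at 0.18 (adjusted p = 0.047), a call lost in 11 of 24 alternative settings. Cox8a fell at -0.18 (adjusted p = 0.024), a call lost without CTR replicate 2 and without Neu replicate 1 or 2. Cox6b1, Cox6c and Cox7c were not called in any comparison, with Neu values of 0.02, 0.09 and 0.22.

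**Figure D3:**
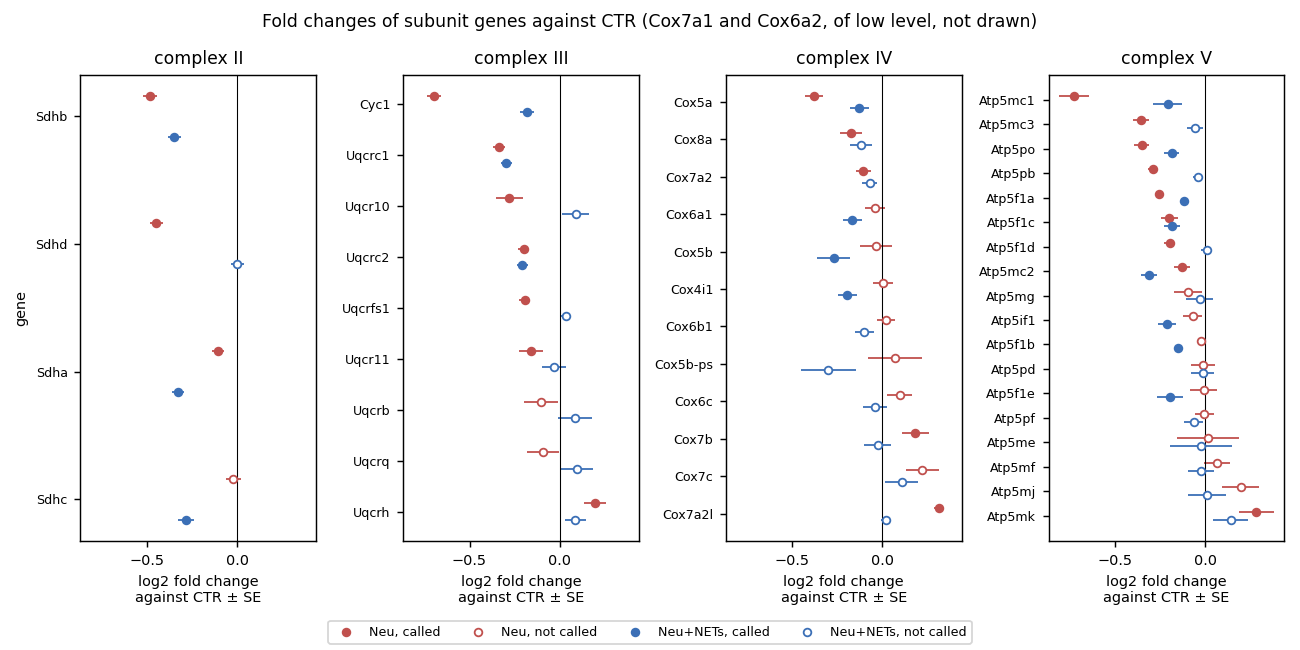
Log2 fold change against CTR (x axis) with its SE for each gene (y axis) of complexes II, III, IV and V, in Neu (red) and Neu+NETs (blue); filled points were called and open points were not. Complex II and III genes lie mostly left of 0 in Neu, complex IV genes lie on both sides, and Sdhd, Uqcrfs1, Atp5mc3 and Atp5pb are left of 0 in Neu with open points near 0 in Neu+NETs.

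Complex V was lower in Neu in 8 of 18 genes and higher in 1, with a median of -0.08. In Neu+NETs 8 were lower and 0 higher, with a median of -0.06. Of all genes tested, 27.9% were called lower and 26.1% higher in Neu, and 23.7% and 21.6% in Neu+NETs. In the direct comparison 6 genes were higher in Neu+NETs than in Neu (Atp5f1a, Atp5f1d, Atp5mc1, Atp5mc3, Atp5pb, Atp5po). Another 4 were lower (Atp5f1b, Atp5f1e, Atp5if1, Atp5mc2). The count higher is near the share of all genes, 29.4%, and the count lower is below their 33.1%. The complex's median in that comparison was -0.02. It turned to 0.05 with library totals alone and 0.09 with limma on log2(FPKM + 1).

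The catalytic head is built of alternating alpha and beta subunits. The alpha subunit gene Atp5f1a was at 336, 331, 339 and 332 FPKM in CTR, 265, 271, 268 and 274 in Neu, and 316, 321, 308 and 328 in Neu+NETs. The groups did not overlap: Neu was lowest, at -0.26 ± 0.02 (SE; adjusted p = 8.9e-09) against CTR, and Neu+NETs lay between, at -0.12 ± 0.02 (SE; adjusted p = 9.9e-05). The beta subunit gene Atp5f1b, whose protein carries the catalytic sites, read 372, 367, 363 and 363 FPKM in CTR, 348, 349, 346 and 345 in Neu, and 339, 345, 341 and 341 in Neu+NETs. It did not pass the test in Neu, at -0.02 with a 95% interval of -0.06 to 0.01, and was lower in Neu+NETs, at -0.15 ± 0.02 (SE; adjusted p = 4.2e-06). In FPKM, every Neu library of Atp5f1b was below every CTR library, so its result in Neu depends on the scale used. Neu+NETs minus Neu was 0.14 ± 0.02 (SE; adjusted p = 1.4e-05) for Atp5f1a and -0.13 ± 0.02 (SE; adjusted p = 1.2e-05) for Atp5f1b; the second call was lost with limma on FPKM. Of the central stalk genes, Atp5f1c was lower in both co-cultures (-0.20 and -0.18). Atp5f1d was lower in Neu (-0.20) and not called in Neu+NETs (0.01). Atp5f1e was not called in Neu (-0.01) and was lower in Neu+NETs (-0.20), a call lost without CTR replicate 1 or 2 or Neu+NETs replicate 2 or 4.

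The peripheral stalk holds the head still while the rotor turns. Its b subunit gene Atp5pb was at 69.6, 66.9, 67.5 and 68.3 FPKM in CTR, 53.0, 53.4, 52.7 and 54.9 in Neu, and 66.8, 68.8, 70.2 and 67.9 in Neu+NETs. Neu was below both other groups, which overlapped, with -0.29 ± 0.02 (SE; adjusted p = 2.4e-08) against CTR and 0.25 ± 0.02 (SE; adjusted p = 1.1e-07) for Neu+NETs minus Neu. Atp5po, the subunit that links stalk and head and confers oligomycin sensitivity, was at 95.7, 96.6, 88.6 and 87.8 FPKM in CTR, 67.5, 73.6, 69.7 and 67.1 in Neu, and 80.9, 83.1, 85.9 and 85.8 in Neu+NETs. It was lower in Neu, at -0.35 ± 0.04 (SE; adjusted p = 1.3e-06), and in Neu+NETs, at -0.18 ± 0.04 (SE; adjusted p = 0.0014). The other stalk genes Atp5pd and Atp5pf were not called in any comparison, at -0.01 and -0.01 in Neu and -0.01 and -0.06 in Neu+NETs.

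The rotor's c-ring is made of 1 mature protein encoded by 3 genes with different import sequences. Atp5mc1 (ENSMUSG00000006057, chr11:95959678-95966496, minus strand) was at 15.9, 16.002, 13.4 and 13.1 FPKM in CTR, 8.09, 7.64, 9.12 and 9.14 in Neu, and 13.1, 11.6, 14.6 and 13.0 in Neu+NETs. Neu was lowest with no overlap, at -0.73 ± 0.08 (SE; adjusted p = 9.6e-07), a 1.65-fold drop and the largest among members called lower in Neu. Neu+NETs overlapped CTR, and its -0.21 (adjusted p = 0.049) was lost with the replicate block and without any of 8 single libraries. Neu+NETs exceeded Neu by 0.52 ± 0.08 (SE; adjusted p = 3.4e-05).

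Atp5mc3 followed the same pattern at a higher level, with 99.5, 99.6, 92.4 and 91.9 FPKM in CTR, 70.3, 72.9, 77.5 and 67.1 in Neu, and 95.9, 93.4, 95.8 and 96.2 in Neu+NETs. Its values were -0.36 ± 0.04 (SE; adjusted p = 2.8e-06) in Neu, -0.06 (adjusted p = 0.33) in Neu+NETs and 0.30 ± 0.04 (SE; adjusted p = 1.6e-05) between them. Atp5mc2 did not: it was at 80.5, 86.5, 79.3 and 82.9 FPKM in CTR, 67.1, 71.0, 77.4 and 74.5 in Neu, and 69.1, 69.8, 69.6 and 65.8 in Neu+NETs. Its mean was lowest in Neu+NETs, where libraries overlapped those of Neu. The value against CTR was -0.31 ± 0.04 (SE; adjusted p = 1.5e-05) in Neu+NETs. In Neu it was -0.13 (adjusted p = 0.02), a call lost without Neu replicate 1 or 2 or CTR replicate 2. Neu+NETs minus Neu was -0.19 ± 0.04 (SE; adjusted p = 0.0013), a call lost with limma on FPKM.

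Shares of isoforms put these shifts on 1 scale, that of FPKM. They rest on implied lengths of 5293 nt for Atp5mc1, 1806 for Atp5mc2 and 2352 for Atp5mc3. Deposited counts in CTR replicate 1 were 4733, 8190 and 13184, so Atp5mc1 is a larger part of the counts. The 3 shares add to the whole and that of Atp5mc1 is small, so those of Atp5mc2 and Atp5mc3 largely must move oppositely. Both genes fell in Neu by log2 fold change, at -0.13 and -0.36. Atp5mc1 was 8.10, 7.92, 7.26 and 6.95% of the summed FPKM of the 3 genes in CTR, 5.56, 5.04, 5.56 and 6.07% in Neu and 7.33, 6.63, 8.12 and 7.45% in Neu+NETs. Atp5mc2 was 41.1, 42.8, 42.8 and 44.1% in CTR, 46.1, 46.9, 47.2 and 49.4% in Neu and 38.8, 39.9, 38.7 and 37.6% in Neu+NETs. Its share was thus highest in Neu and lowest in Neu+NETs, with no overlap between any groups. Atp5mc3 held 50.8, 49.3, 49.9 and 48.9% in CTR, 48.3, 48.1, 47.3 and 44.5% in Neu and 53.9, 53.4, 53.2 and 55.0% in Neu+NETs, the opposite order. Mean shares of Atp5mc2 were 42.7% ± 1.24, 47.4% ± 1.43 and 38.8% ± 0.955 (SD, n = 4), and of Atp5mc3 49.7% ± 0.828, 47.0% ± 1.76 and 53.9% ± 0.773.

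Cox7a1 made up 2.26, 3.14, 1.83 and 1.82% of the sum of Cox7a1 and Cox7a2 in CTR, 6.31, 6.08, 5.54 and 5.09% in Neu and 2.82, 1.32, 1.70 and 1.11% in Neu+NETs. Neu was above both other groups, which overlapped. Of 12 two-sided exact permutation tests on these shares, 10 gave p = 0.029, the smallest that 4 against 4 allows, and 0.034 after Benjamini-Hochberg adjustment over the 12. The exceptions compared Neu+NETs with CTR, at p = 0.31 for Cox7a1 and 0.69 for Atp5mc1 by the exact permutation test. Both the shares and the fold changes above come from these libraries, so they are not separate evidence. The Atp5mc shares add to the whole, so their tests are not independent of each other.

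**Figure D4:**
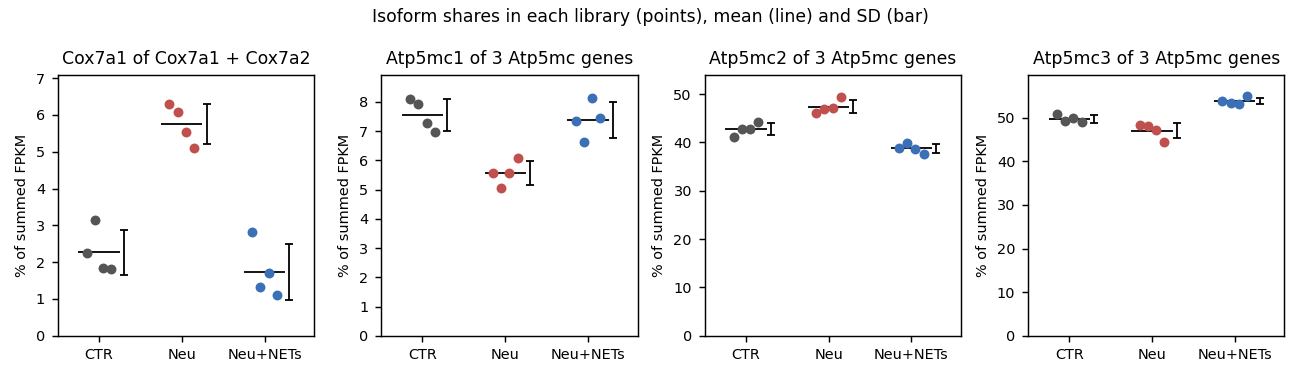
Points are the share of summed FPKM (percent, y axis from 0) in each of the 4 libraries per group (x axis), with the mean as a line and the SD as a bar. Cox7a1 rises to 5.75% in Neu and Atp5mc1 drops to 5.56% there. The Atp5mc2 and Atp5mc3 shares, tied because the Atp5mc shares add to the whole, are 47.4% and 47.0% in Neu. They are 38.8% and 53.9% in Neu+NETs.

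Atp5if1, the inhibitor that binds complex V when it would run backwards and hydrolyse ATP, was at 61.6, 66.7, 61.5 and 61.5 FPKM in CTR, 60.6, 58.4, 57.8 and 53.4 in Neu, and 59.0, 54.2, 58.2 and 53.1 in Neu+NETs. It was not called in Neu, at -0.07 with a 95% interval of -0.17 to 0.03, and was lower in Neu+NETs, at -0.21 ± 0.05 (SE; adjusted p = 0.0025). Its Neu libraries were nonetheless all below those of CTR in FPKM, so the result in Neu depends on the scale used. Of the small membrane subunits, Atp5mk rose in Neu at 0.28 (adjusted p = 0.021) with overlapping groups, a call lost without Neu replicate 1, 2 or 3 or CTR replicate 4. Atp5me, Atp5mf, Atp5mg and Atp5mj were not called in any comparison, with values between -0.10 and 0.20 in Neu.

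The partner genes of the pathway were read from gene lists in the same fit. Cytochrome c, which carries electrons from complex III to complex IV, is encoded by Cycs. It was at 44.8, 43.6, 42.0 and 42.0 FPKM in CTR, 23.4, 22.0, 23.7 and 21.8 in Neu, and 58.3, 59.3, 59.5 and 59.0 in Neu+NETs. No groups overlapped, and it was lowest in Neu and highest in Neu+NETs. The values were -0.87 ± 0.04 (SE; adjusted p = 3.2e-12) in Neu, 0.40 ± 0.04 (SE; adjusted p = 7.8e-08) in Neu+NETs and 1.27 ± 0.04 (SE; adjusted p = 1.2e-14) between them. Ndufa4, a subunit of complex IV by structure, was not called, at -0.14 and -0.01. Higd1a, a hypoxia-induced protein that binds complex IV, rose by 2.01 ± 0.10 (SE; adjusted p = 2.7e-11) in Neu and 0.83 ± 0.10 (SE; adjusted p = 2.8e-06) in Neu+NETs. Lonp1, the matrix protease, rose by 0.66 ± 0.03 (SE; adjusted p = 9.8e-12) and 0.17 ± 0.03 (SE; adjusted p = 1.9e-04).

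Assembly factors, which build the complexes without being part of them, were lower in Neu in each complex's list: 2 of 4 for complex II, 6 of 9 for complex III, 14 of 26 for complex IV and 3 of 5 for complex V, and 2 in all were higher, both of complex IV. Of all genes tested, 27.9% were lower and 26.1% higher in Neu, and 23.7% and 21.6% in Neu+NETs. These lists are short. In Neu+NETs against CTR, 1 was higher and 0 lower for complex II, 2 and 1 for complex III, 3 and 5 for complex IV, and 1 and 2 for complex V. Medians in Neu were -0.33, -0.29, -0.25 and -0.27, and in Neu+NETs 0.19, 0.08, -0.08 and -0.14, beside 0.02 and 0.00 for all genes. Their summed level for complex IV was 257 to 262 FPKM in CTR, 199 to 203 in Neu and 255 to 264 in Neu+NETs.

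Cox10, which makes the heme o precursor of the heme of complex IV, was at 12.8, 12.0, 12.3 and 13.5 FPKM in CTR, 4.79, 5.27, 4.80 and 5.05 in Neu, and 12.8, 12.9, 11.7 and 12.7 in Neu+NETs. Only Neu was low, at -1.29 ± 0.06 (SE; adjusted p = 4.0e-12), a 2.44-fold drop; Neu+NETs was -0.06 with a 95% interval of -0.17 to 0.04. Taco1, a translational activator of COX1, read 8.93, 9.42, 8.37 and 10.4 FPKM in CTR, 5.62, 5.20, 4.82 and 3.91 in Neu, and 11.9, 13.1, 12.7 and 11.001 in Neu+NETs. It fell by 0.86 in Neu on the log2 scale (adjusted p = 3.7e-06) and rose by 0.34 in Neu+NETs (adjusted p = 0.016). Sdhaf1, which helps place iron-sulfur clusters in SDHB, was at 4.31, 3.85, 3.92 and 4.24 FPKM in CTR, 1.90, 2.18, 2.15 and 1.75 in Neu, and 5.07, 3.94, 4.88 and 4.94 in Neu+NETs. It was lower in Neu at -0.97 ± 0.11 (SE; adjusted p = 6.5e-07). Uqcc4 and Uqcc1, factors for complex III, were at -0.77 (adjusted p = 1.8e-08) and -0.53 (adjusted p = 1.2e-08) in Neu and 0.09 (adjusted p = 0.29) and 0.14 (adjusted p = 0.0098) in Neu+NETs.

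**Figure D5:**
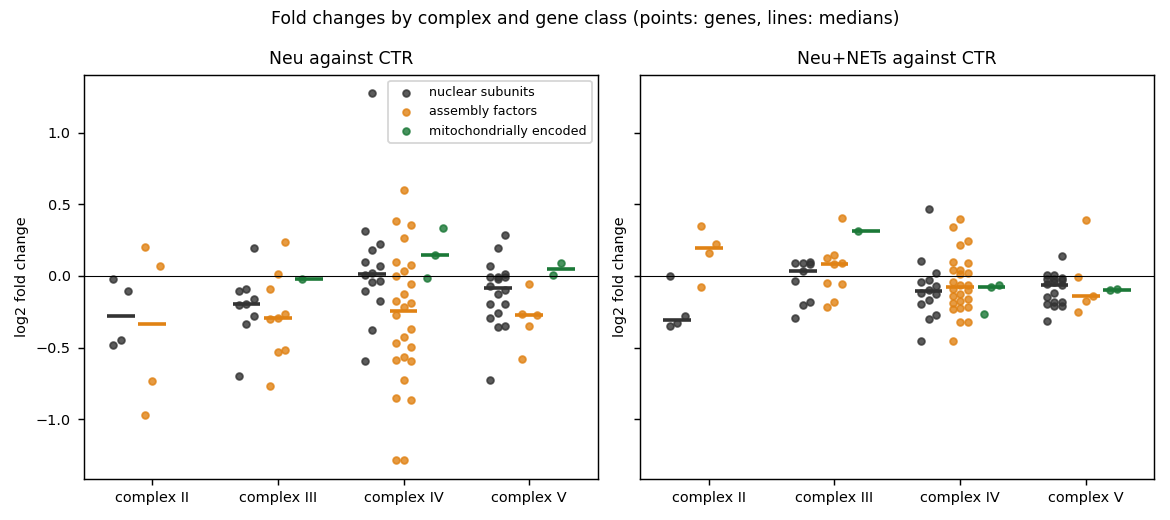
Points are log2 fold changes (y axis) of single genes against CTR, in Neu and in Neu+NETs, by complex (x axis) and by class: nuclear subunits (black), assembly factors (orange) and mitochondrially encoded subunits (green), with medians as lines. In Neu the assembly factor medians lie between -0.33 and -0.25 for all 4 complexes, and in Neu+NETs the nuclear complex II median of -0.30 lies lowest.

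The mitochondrially encoded partners were called in both directions. Of 13 such genes, 3 were higher and 4 lower in Neu and 8 higher and 3 lower in Neu+NETs, with medians of -0.02 and 0.12. The counts in Neu are near the shares of all genes, 26.1% higher and 27.9% lower; those shares were 21.6% and 23.7% in Neu+NETs. Polyadenylated libraries capture mitochondrial transcripts unevenly, so levels between them were not compared. For complex III, mt-Cytb was at 1174, 1116, 1141 and 1203 FPKM in CTR, 1103, 1141, 1098 and 1051 in Neu, and 1469, 1422, 1529 and 1535 in Neu+NETs. It was higher in Neu+NETs, at 0.31 ± 0.03 (SE; adjusted p = 4.6e-07), and -0.02 in Neu with a 95% interval of -0.08 to 0.04. For complex IV, mt-Co2 was at 2826, 2774, 2651 and 2823 FPKM in CTR, 3443, 3519, 3260 and 3194 in Neu, and 2653, 2663, 2811 and 2824 in Neu+NETs. It rose in Neu, by 0.33 ± 0.03 (SE; adjusted p = 2.1e-07), with all 4 libraries above the rest. Mt-Co3 rose in Neu, by 0.14 ± 0.02 (SE; adjusted p = 7.5e-05), and fell in Neu+NETs, at -0.26 ± 0.02 (SE; adjusted p = 1.3e-07). Mt-Co1 was not called in Neu (-0.02) and was -0.08 (adjusted p = 0.023) in Neu+NETs with overlapping groups. For complex V, mt-Atp6 was 0.09 (adjusted p = 0.028) and -0.10 (adjusted p = 0.018).

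Regulators of nuclear subunit genes were lower in Neu in 8 of 13 and higher in 2, and lower in Neu+NETs in 7 and higher in 3. The shares of all genes were 27.9% lower and 26.1% higher in Neu and 23.7% and 21.6% in Neu+NETs. Pprc1, a coactivator of the PGC-1 family, was at 28.5, 28.7, 30.3 and 31.8 FPKM in CTR, 13.0, 12.8, 12.7 and 14.983 in Neu, and 25.1, 26.3, 23.7 and 25.8 in Neu+NETs. The groups did not overlap, and the values were -1.10 ± 0.05 (SE; adjusted p = 3.7e-12) in Neu and -0.29 ± 0.05 (SE; adjusted p = 5.8e-05) in Neu+NETs. Nrf1 itself was -0.42 (adjusted p = 3.4e-06) in Neu and -0.11 (adjusted p = 0.12) in Neu+NETs. Ppargc1b was lower in both, at -0.85 (adjusted p = 1.1e-07) and -0.25 (adjusted p = 0.018), as was Esrra, at -0.21 (adjusted p = 0.0068) and -0.17 (adjusted p = 0.033). Gabpa, the ETS subunit of GABP, was 0.16 (adjusted p = 0.013) and 0.10 (adjusted p = 0.12). Tfam, which packages and transcribes mitochondrial DNA, fell in Neu at -0.41 (adjusted p = 6.8e-07) and rose in Neu+NETs by 0.33 (adjusted p = 1.3e-05).

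Complex II is also an enzyme of the tricarboxylic acid cycle. Of 18 genes of that cycle and of pyruvate entry, 15 were lower and 1 higher in Neu, with a median of -0.23, and 7 were lower and 4 higher in Neu+NETs, with a median of -0.04. Pdk1, the kinase that shuts pyruvate dehydrogenase, was the 1 higher in Neu, by 0.65 ± 0.03 (SE; adjusted p = 7.5e-12), and was 0.17 ± 0.03 (SE; adjusted p = 1.2e-04) in Neu+NETs. The 37 nuclear subunit genes of complex I, which also feeds ubiquinone, gave 18 lower and 3 higher in Neu, with a median of -0.14. In Neu+NETs they gave 13 lower and 0 higher, with a median of -0.11. Of all genes tested, 27.9% were called lower and 26.1% higher in Neu, and 23.7% and 21.6% in Neu+NETs. For the cycle in Neu+NETs, the count higher is near that share.

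In each group replicate 4 was the library most often lowest. In CTR it was lowest for 20 of the 43 members with an implied length, and in Neu+NETs for 19. The count was largest for Neu replicate 4. Among the 43 members with an implied length, it was the lowest in 28, which were 14 of the 21 shorter members and 14 of the 22 longer ones, with a median log2 deviation of -0.13 for the shorter and -0.04 for the longer. Without it, Neu against CTR gave 7 higher and 18 lower members. Across the 43 members, Spearman's rho of the log2 fold change with that length was -0.27 in Neu and -0.31 in Neu+NETs against CTR and 0.10 for Neu+NETs minus Neu, as a description over genes that share libraries. Over the 10097 tested genes with such a length it was 0.10, 0.02 and -0.07. Sdha, Sdhb, Sdhd and Cyc1 were below the CTR mean in all 4 Neu libraries.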

How the data were processed

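Polyadenylated RNA of 12 libraries, 4 in each of CTR, Neu and Neu+NETs, was sequenced. The authors deposited FPKM and estimated counts per gene; per the submitters' processing notes HISAT2 2.0.4, StringTie 1.3.4d, edgeR and GRCm39 were used, with no role or order stated. No annotation release, strand setting or filter is given in the sources used here, so overlapping or antisense genes and near-identical copies may share reads. Groups came from sample titles. The deposited estimated counts are whole numbers and were used as they stand.

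Counts were fitted with edgeR 4.0.16 in R 4.3.3 (quasi-likelihood, filterByExpr, TMM, all 12 libraries, Benjamini-Hochberg over 16387 genes, threshold 0.05). Deposited FPKM values gave levels and isoform shares, which were compared with scipy 1.17.1 exact permutation tests. The alternatives were other scalings, filters, counts divided by 4, DESeq2 1.42.0, limma 3.58.1 on log2(FPKM + 1) or log2(FPKM + 0.1), 2 groups in a fit, a replicate block and leaving out each library. Fits were tested on simulated data. The members and lists were chosen with earlier results of these data known. Values in every library are given for complex II and, in complexes III to V, for the 3 members with the smallest adjusted p in each comparison and for isoforms. Of each gene list, the genes with the smallest adjusted p or a known role are named, not all of those the rule allowed. Promoter windows came from RefSeq (GRCm38.p6), matched by symbol or synonym; of the members, 33 matched.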

Additional observations from a re-analysis of the deposited data

Results flagged for a closer look

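In 9 of 135 groups of 4 libraries, 1 library lay far from the other 3, beyond Dixon's 95% critical value for the gap over the range; chance gives about 1 in 20 groups. CTR replicate 2 was the high one for 4 genes: Cox5b at 51.3 FPKM (others 41.3 to 41.4), Cox7b at 54.4 (47.5 to 48.1), Cox8a at 263.9 (214 to 222) and Atp5if1 at 66.7 (61.5 to 61.6). CTR replicate 4 was low for Uqcrh, at 32.9 FPKM (38.0 to 38.9). Neu+NETs replicate 4 was low for Cox5a, at 37.0 (41.3 to 41.6), and for Atp5mc2, at 65.8 (69.1 to 69.8). Neu+NETs replicate 2 was low for Atp5mc3, at 93.4 (95.8 to 96.2). Neu replicate 4 was high for Atp5f1d, at 68.1 (63.6 to 64.1).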

How the results depend on the processing

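Of the calls listed, those kept in all 24 alternative settings were 2 of 5 higher (Cox7a2l, Cox7a1) and 15 of 20 lower for Neu against CTR, 10 of 18 lower for Neu+NETs against CTR, and 11 of 12 higher and 4 of 12 lower (Sdha, Sdhc, Cox7a1, Cox7a2l) for Neu+NETs against Neu. No called member changed sign in any setting run. Members lower in Neu+NETs than in Neu numbered 6 with library totals alone, 7 without the low-count filter and 4 with limma on log2(FPKM + 1), on log2(FPKM + 0.1) or on all genes; those higher numbered 20 with either limma fit of filtered genes. Neu against CTR gave 3 higher with limma on log2(FPKM + 1) or log2(FPKM + 0.1) and 2 on all genes. Neu+NETs against CTR gave 2 higher with library totals alone and 10 lower with limma on all genes.

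Medians by complex moved beyond the spread of library medians as follows. In Neu against CTR, complex II was -0.233 with upper-quartile scaling and -0.332, -0.335 and -0.332 with limma at log2(FPKM + 1), log2(FPKM + 0.1) and all genes, and complex III was -0.249, -0.251 and -0.249. In Neu+NETs against CTR, complex II was -0.249 with library totals and -0.252, -0.256 and -0.252 with limma; complex III was 0.0879 and then 0.0807, 0.0812 and 0.0807. In Neu+NETs against Neu, complex II was 0.0300 with library totals, -0.0872 with upper-quartile scaling and 0.0623, 0.0642 and 0.0623 with limma; complex III was 0.261, 0.144, 0.285, 0.294 and 0.285. Complex IV was -0.0281, -0.0294 and -0.0248 with limma, and complex V was 0.0488 with library totals and 0.0863, 0.0917 and 0.0863 with limma. The cause was not tested. For Neu+NETs minus Neu the limma medians over the 11250 filtered genes were 0.11 and 0.13, and 0.00 over all 27487 genes.

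Leaving out each library gave 3 to 7 higher members in Neu against CTR (3 without Neu replicate 1, 2 or 3 or CTR replicate 4), 0 to 1 in Neu+NETs against CTR (Uqcrq without CTR replicate 2) and 7 to 17 lower in Neu+NETs against Neu (7 without Neu replicate 1 or 3 or Neu+NETs replicate 2 or 4), where the complex III median was 0.105 to 0.223. Over all genes tested, replicate numbers showed no sign of pairing the samples: correlations of deviations of same-numbered libraries were -0.05 to 0.04. Among the members, however, replicate 4 was the library most often lowest in each group. Such values cannot exclude a small effect shared by same-numbered libraries. With the replicate block, members higher and lower numbered 7 and 20 in Neu against CTR, 0 and 18 in Neu+NETs against CTR, and 14 and 14 in Neu+NETs against Neu. Depth limits the low genes: Cox7a1 rests on 26 to 157 deposited counts and Cox6a2 on fewer, at about 4 units per fragment.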
